A study of Mus musculus with 2 samples.

Results

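A set of 10 hepatic transporter genes of bile formation was described, chosen by name: the canalicular exporters Abcb11, Abcb4 and Abcc2, the sinusoidal exporters Abcc3 and Abcc4, and the sinusoidal uptake carriers Slc10a1, Slco1a1, Slco1a4, Slco1b2 and Slc22a7. Every probe set annotated with 1 of these symbols alone was taken. This gave 15 probe sets for 9 of the 10 genes, out of 12393 genes with such a probe set on the array. Abcc4 had no probe set with its symbol in the table, so it has no signal or ratio here and enters only the promoter search. The study compared pooled liver RNA from male apolipoprotein E-deficient mice with a C57BL/6J background on Affymetrix arrays. The oleanolic acid array carries the pool from mice given a Western diet with 0.01% oleanolic acid, a plant triterpenoid, for 11 weeks, a dose of 10 mg per kg and day. The control array carries the pool from mice given the Western diet without it. All mice lacked apolipoprotein E, which slows remnant lipoprotein clearance. All were 2 months old at the start, before 11 weeks on the diet. The diet of both pools was semipurified. With 1 pooled array per diet there was no replicate and no test of the diet, so every difference describes 2 arrays and not the variation between mice.

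Bile forms when hepatocytes take up bile salts and organic anions from sinusoidal blood and pump them, with phospholipid and cholesterol, across the canalicular membrane. Uptake is carried by the sodium-dependent carrier Slc10a1 and by sodium-independent Slco and Slc22 carriers, and Abcc3 and Abcc4 return anions to the blood. In liver the bile acid receptor FXR, encoded by Nr1h4, is known to raise Abcb11 through an inverted repeat element in its promoter, and it raises Nr0b2, whose product represses Cyp7a1.

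None of the 9 measured transporters differed between the arrays by a log2 ratio of 0.5 in either direction. The highest values, oleanolic acid over control, were those of Abcb11 and Abcc3, 1.21-fold and 1.19-fold. Of the 5 uptake carriers 4 were lower in the oleanolic acid array, with differences of -7.12% to -12.3% of the control signal. Slc10a1, the main bile salt uptake carrier, was 2.09% higher as deposited and lower after quantile normalization (log2 ratio -0.03) and after intensity-dependent centring (-0.03). Among all 7137 measured genes, 5.87% were past 0.5 in size (2.63% higher and 3.24% lower), 1.02% past 1 and 0.392% past 1.5, the size named in the submitters' design text. Of the 9 members 7 lie in the brightest of 4 signal bands, where 2.75% of genes were past 0.5. A count of 0 among 9 is near that background.

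Promoter sequences are shown for the canalicular members with the highest and the lowest ratio, Abcb11 and Abcc2, and for Slco1b2, whose window holds the same kind of inverted repeat as that of Abcb11. Each runs from 250 bases before to 50 bases after a RefSeq start (GRCm38.p6), 5′ to 3′ on the strand of the gene. Abcb11 lies at chr2:69342567-69342866 on the minus strand, Abcc2 at chr19:43782058-43782357 on the plus strand and Slco1b2 at chr6:141629268-141629567 on the plus strand. Capitals mark matches to the 4 motifs named after the sequences.
Abcb11: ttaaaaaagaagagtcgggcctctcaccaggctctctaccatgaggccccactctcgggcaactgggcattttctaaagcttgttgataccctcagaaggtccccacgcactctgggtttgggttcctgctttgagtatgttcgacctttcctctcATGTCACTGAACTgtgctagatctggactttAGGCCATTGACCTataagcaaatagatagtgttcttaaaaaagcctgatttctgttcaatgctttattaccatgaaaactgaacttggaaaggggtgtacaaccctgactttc
Abcc2: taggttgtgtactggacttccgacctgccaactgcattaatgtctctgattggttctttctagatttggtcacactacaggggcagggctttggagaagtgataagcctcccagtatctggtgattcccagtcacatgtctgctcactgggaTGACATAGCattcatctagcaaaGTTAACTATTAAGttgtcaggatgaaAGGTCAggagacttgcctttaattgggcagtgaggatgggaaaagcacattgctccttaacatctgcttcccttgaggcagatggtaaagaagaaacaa
Slco1b2: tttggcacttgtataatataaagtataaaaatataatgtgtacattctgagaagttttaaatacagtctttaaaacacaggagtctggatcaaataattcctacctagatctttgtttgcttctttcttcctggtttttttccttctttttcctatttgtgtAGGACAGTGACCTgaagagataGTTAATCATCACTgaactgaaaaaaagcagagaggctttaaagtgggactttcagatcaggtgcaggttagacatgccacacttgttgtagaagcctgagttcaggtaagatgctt

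The motifs were searched on both strands in 10 windows of 8 members. Abcc3 and Slc22a7 are named here without a window. The inverted repeat AGGTCANTGACCT, with up to 2 mismatches, matched in 2 of the 10 windows, against 1.14% of 32851 RefSeq windows of the same length. In Abcb11 a match with 1 mismatch lay 63 to 51 bases before the start and another with 2 mismatches lay 94 to 82 bases before it. In Slco1b2 a match with 1 mismatch lay 88 to 76 bases before the start. These 2 genes had log2 ratios of 0.27 and -0.11, on opposite sides of 0. The nuclear receptor element AGGTCA, with no mismatch, was in 5 of 10 windows, those of Abcb11, Abcc2, Slco1a1 and Slco1b2 and 1 of the windows of Slc10a1, against 16.3% of all windows. In Abcb11 and Slco1b2 it overlaps the inverted repeat.

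The HNF1 element GTTAATNATTAAC, bound by a hepatocyte transcription factor, matched with up to 3 mismatches in 5 of 10 windows, against 8.33% of all windows. These were both windows of Slc10a1 and those of Slco1a1, Slco1b2 and Abcc2, and the Abcc2 match had 2 mismatches. The genes with this match had log2 ratios between -0.14 and 0.03. The core of the antioxidant response element, TGACNNNGC with no mismatch, through which NRF2 acts, was in 3 of 10 windows, against 12.4% of all windows. They were both windows of Abcc4 and that of Abcc2, where it lay 98 to 90 bases before the start. A match of letters is a description of the window and no evidence of binding in these livers.

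Values are MAS5 signals, the linear brightness of a probe set in array units. The hepatocyte markers were bright in both pools: 8 of 10 had a probe set, all 8 were measured, and Alb, the serum albumin gene, had signals of 8950 in the oleanolic acid array and 8540 in the control array. The error given with a ratio is the SD between the measured probe sets of a gene. For a gene with 1 measured probe set it is a pooled SD. That SD is pooled over the genes with several measured probe sets in the same of 4 bands of mean signal (0.27, 0.25, 0.17 and 0.13 from the dimmest to the brightest). It covers probe error within these arrays only. A probe set counted as measured if it reached the array median (59.3 for oleanolic acid, 61.5 for control) on at least 1 array. All 9 genes and 13 of their 15 probe sets passed. The 3′ over 5′ signal ratio of a control transcript is a sign of RNA integrity. For Gapdh and beta-actin it was 0.784 and 1.79 in the oleanolic acid array and 0.764 and 1.71 in the control array. For pyruvate carboxylase it was much higher, 12.1 in the oleanolic acid array and 12.6 in the control array. For 18S RNA it was 0.558 and 0.475 in the same order. The transferrin receptor control was dim, with 3′ signals of at most 7.2. In pooled tissue, fewer cells of a type and less RNA per cell cannot be told apart.

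**Figure D1:**
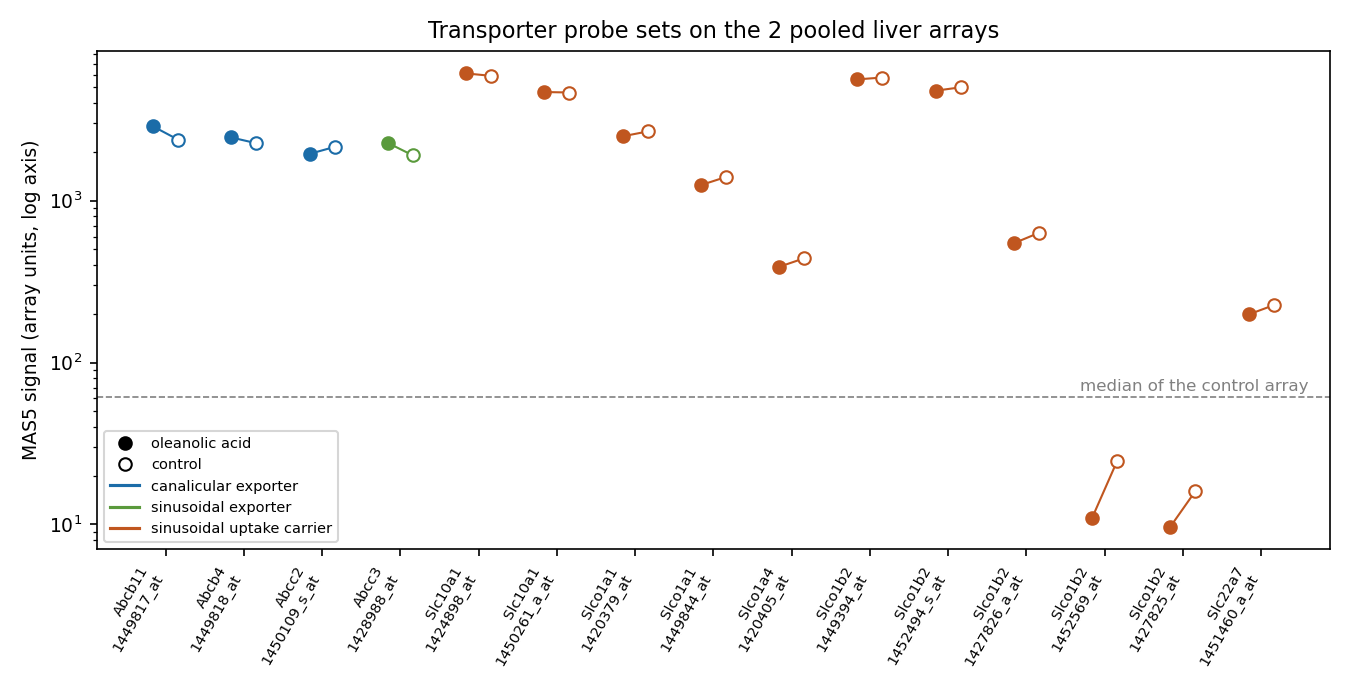
MAS5 signal (log axis) of the 15 transporter probe sets, with the oleanolic acid array (filled, left) and the control array (open, right) joined for each probe set and coloured by role. The 13 measured probe sets differ little between the arrays, and the 2 dim Slco1b2 probe sets lie below the median of the control array (dashed).

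Canalicular exporters lay on both sides of 0. Abcb11, the bile salt export pump, had a signal of 2873 in the oleanolic acid array and 2379 in the control array. Its log2 ratio was 0.27 with a probe set SD of 0.13, the highest of the 9 members. Of all measured genes 90.8% had a lower ratio and 20.6% had a ratio larger in size. Among the genes of its own signal band, the brightest, 10.8% had a larger one.

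Abcb4, which moves phosphatidylcholine into bile, had signals of 2454 in the oleanolic acid array and 2261 in the control array. Its log2 ratio of 0.12 was smaller than its probe set SD of 0.13, and 52.9% of measured genes had a larger ratio in size. Abcc2, the canalicular pump for glucuronide and glutathione conjugates such as conjugated bilirubin, was the lower one of the 3. Its signal was 1944 in the oleanolic acid array and 2146 in the control array, a log2 ratio of -0.14 with a probe set SD of 0.13. Its only probe set ends in _s_at, a kind whose probes can match several transcripts. Each canalicular gene rests on 1 probe set, so no agreement between probe sets can be shown for this group.

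The canalicular genes also differed among themselves. The largest gap between a canalicular exporter and an uptake carrier was 0.46, Abcb11 over Slc22a7. Abcb11 exceeded Abcc2 by 0.41 on the log2 scale, with a combined probe set SD of 0.19. Abcb11 and Abcb4 differed by 0.15, less than their combined SD of 0.19. The median of the 3 log2 ratios was 0.12, against 0.0012 for all measured genes and 0.03 for genes of the brightest band.

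The sinusoidal export side was represented by Abcc3 alone, which exports glucuronides and bile salts back to the blood. Its signal was 2271 in the oleanolic acid array and 1903 in the control array. The log2 ratio was 0.26 with a probe set SD of 0.13, and 22.8% of measured genes had a larger ratio in size. It was within 0.02 of that of Abcb11, with a combined probe set SD of 0.19. Abcc3 is also made by bile duct cells. Of 10 cholangiocyte markers 7 had a probe set, and 6 of them (Krt19, Krt7, Sox9, Cftr, Cldn4 and Prom1) did not reach the median of either array, with signals of at most 40.7. The only measured marker, Epcam, had signals of 32.9 in the oleanolic acid array and 63.1 in the control array. It passed the filter through the control array only, which fixed its direction, so nothing is read from it.

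The uptake carriers had log2 ratios between -0.19 and 0.03, with a median of -0.13. Slc10a1, the sodium-taurocholate cotransporter, was read by 2 probe sets, with signals of 6102 and 4683 in the oleanolic acid array and 5894 and 4652 in the control array. Their log2 ratios were 0.05 and 0.0097, a mean of 0.03 with an SD of 0.03. Of all measured genes 86.7% had a larger ratio in size, the highest such share among the members. As deposited, both probe sets were higher in the oleanolic acid array, by 3.53% and 0.675%, while the sign of the gene value flips under both other scalings.

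The 3 Slco members, all organic anion transporting polypeptides, were lower in the oleanolic acid array under every alternative run. They lie in 1 run of genes on chromosome 6 in the RefSeq annotation, with Slco1c1 and Slco1a6 near its ends. Slco1a1, a carrier with higher expression in male than female mouse liver, had signals of 2495 and 1247 in the oleanolic acid array and 2673 and 1399 in the control array. Its mean log2 ratio was -0.13 with an SD of 0.05 between 2 probe sets (-0.10 and -0.17). This was the largest ratio relative to its probe set SD among the members, but those SDs are of unlike kinds. The SD of Slco1a1 rests on 2 probe sets, while members with 1 probe set carry the pooled SD of their band, 0.13 in the brightest.

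Slco1a4, a carrier of bile salts and cardiac glycosides, had signals of 390 in the oleanolic acid array and 440 in the control array, a log2 ratio of -0.17 with a probe set SD of 0.17. Slco1b2, the rodent counterpart of the human liver carriers OATP1B1 and OATP1B3, had 5 probe sets. The 3 measured ones had signals of 5605, 4773 and 546 in the oleanolic acid array and 5756, 5007 and 632 in the control array. Their log2 ratios were -0.04, -0.07 and -0.21, a mean of -0.11 with an SD of 0.09. The 2 dim ones had signals of 11.0 and 9.7 in the oleanolic acid array and 24.7 and 16.1 in the control array, all under both array medians. All 5 probe sets were lower in the oleanolic acid array, and the gene value was -0.43 with the dim ones included and -0.04 with the brightest probe set alone. The neighbours Slco1c1 and Slco1a6 had signals of at most 4.0, so nothing can be said of them. Slco genes are close in sequence, and probes of 1 can bind RNA of another.

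Slc22a7, the organic anion transporter OAT2, had a signal of 198 in the oleanolic acid array and 226 in the control array. Its log2 ratio of -0.19 was the lowest of the 9 and smaller than its probe set SD of 0.25. It lies in the second of the 4 signal bands, where the spread between probe sets of a gene is wider than in the brightest.

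**Figure D2:**
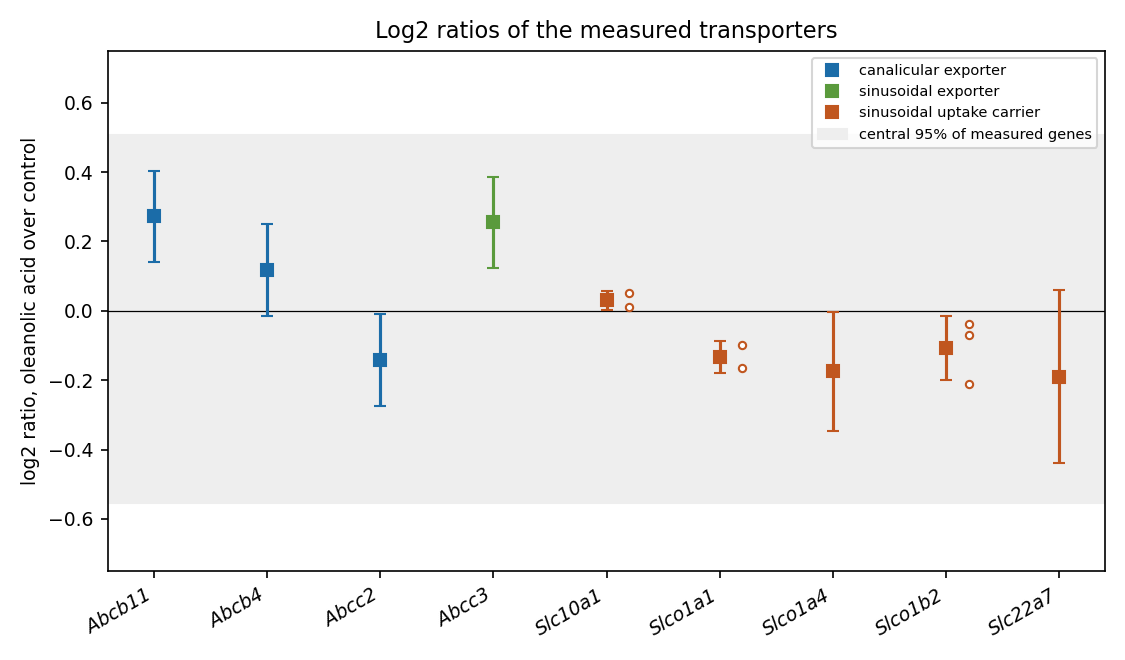
Log2 ratio, oleanolic acid over control, of the 9 measured transporters, coloured by role (squares, with bars for the probe set SD; small open circles are single probe sets of genes with several). All 9 lie within the grey band, the central 95% of measured genes, which runs from -0.56 to 0.51.

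Set against each other, the canalicular exporters had a median 0.25 above that of the uptake carriers on the log2 scale, 0.12 against -0.13, and means of 0.08 and -0.11. Without the _s_at probe set of Abcc2 the exporter median was 0.20. The ranges overlap, because Abcc2 lies among the uptake carriers and Slc10a1 lies above Abcc2. Of the 15 pairs of 1 canalicular exporter and 1 uptake carrier, the exporter had the higher ratio in 12 and the lower in 3, and the 3 all involve Abcc2. The pairs reuse the same 3 and 5 genes, so they are not independent observations. In 10 pairs the difference was larger than the combined probe set SD, with the exporter higher in 9 and lower in 1, Abcc2 against Slc10a1 (-0.17). In 3 pairs it was larger than 2 combined SDs. Those 3 pair Abcb11 with Slco1a1 (0.41), Slco1a4 (0.45) and Slco1b2 (0.38). With Abcc3 counted, the ratios fall in the order Abcb11, Abcc3, Abcb4, Slc10a1, Slco1b2, Slco1a1, Abcc2, Slco1a4 and Slc22a7, where 7 of the 8 neighbouring pairs differ by less than their combined probe set SD. The exception is Slc10a1 and Slco1b2, which differ by 0.14, and whose SDs of 0.03 and 0.09 rest on 2 and 3 probe sets. Combined SDs mix such SDs with pooled band SDs, so the counts of pairs past them depend on the kind used. With 3 and 5 genes on 2 arrays, this is a description and no test of the diet.

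**Figure D3:**
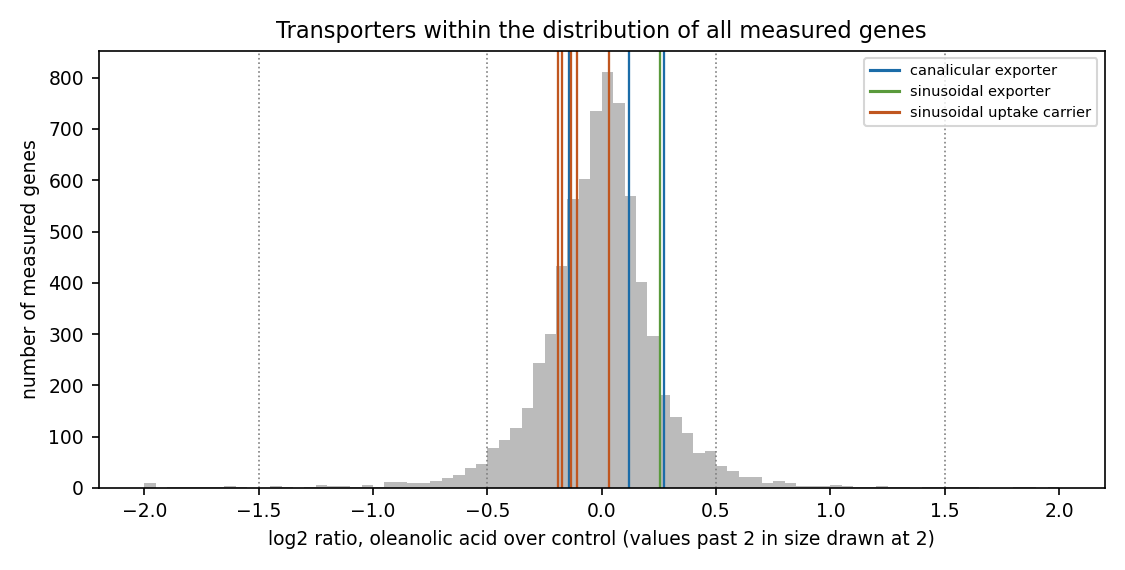
Number of measured genes (bars, width 0.05) by log2 ratio, oleanolic acid over control, with the 9 transporters as vertical lines coloured by role. All 9 lines fall between the inner dotted lines at -0.5 and 0.5, and the outer dotted lines mark the submitters' size of 1.5.

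Genes outside the members were described from related lists. These lists together hold more measured genes than the members, and most genes named were picked for large ratios. Larger values there are therefore no contrast with the members. The share past 0.5 among all measured genes, to set beside the counts below, was 5.87% (2.63% higher and 3.24% lower). Among 5 measured genes of a list of other canalicular exporters and flippases, 5 had ratios below 0 and none was past 0.5, with a median of -0.12. Abcg5 and Abcg8, which together pump sterols into bile, had log2 ratios of -0.33 (probe set SD 0.13) and -0.20 (probe set SD 0.17). Abcg2, an exporter of sulphated conjugates and drugs, and Slc47a1, an exporter of organic cations, both had -0.12. Abcb1a, Abcb1b and Atp7b did not reach the array median, and Atp8b1 had no probe set with its symbol.

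Of 8 measured other sinusoidal carriers, 2 were above 0.5 and 1 was below -0.5. Slc16a1, the monocarboxylate carrier for lactate and ketone bodies, had signals of 1449 in the oleanolic acid array and 830 in the control array, a log2 ratio of 0.80 with a probe set SD of 0.13. Slco3a1 was at 0.50 on signals of 64.2 in the oleanolic acid array and 45.3 in the control array, and at 0.06 with the floor at the array median, and it passed the filter through the oleanolic acid array only. Slco2a1, a prostaglandin carrier, was at 0.43 with an SD of 0.03 between 2 probe sets. Abcc5 was at -0.59 on signals of 67.5 in the oleanolic acid array and 101.5 in the control array, with the sign turned (0.12) when its 6 dim probe sets were included. The bile salt exporter subunit Slc51a was dim, with signals of at most 2.6.

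Among 16 measured regulators of bile transporters, 2 were above 0.5, none was below -0.5 and the median was 0.09. Nr1h4, which encodes FXR, had signals of 1211 in the oleanolic acid array and 1214 in the control array, a log2 ratio of -0.0029. Nr0b2, a target gene of FXR, gave 1007 signal units in the oleanolic acid array and 598 in the control array. Its log2 ratio was 0.75 with a probe set SD of 0.13, against 0.27 for Abcb11. Fgfr4, the receptor for the intestinal bile acid hormone, was at 0.50 (probe set SD 0.25), and at 0.16 with its dim probe sets included. The xenobiotic receptors Nr1i2 (PXR) and Nr1i3 (CAR) were at -0.10 and -0.22, and Nfe2l2, which encodes NRF2, was at -0.07, while its inhibitor Keap1 was at 0.38 with a probe set SD of 0.33, and at 0.15 with its brightest probe set alone. Ppara, the fatty acid receptor, was at -0.34, and Hnf4a, a master regulator of hepatocyte genes, at 0.22 with a probe set SD of 0.33, or 0.05 with its brightest probe set alone.

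Scaffolds that hold or move transporters at the membrane had a median of -0.04 over 9 measured genes, with 1 below -0.5. That was Ezr, which encodes ezrin, at -0.88 with a probe set SD of 0.86, and its probe sets disagreed (-0.27 and -1.49), each reaching the array median on the control array only. Slc9a3r1, a PDZ scaffold of apical membranes, was at -0.33 with an SD of 0.05 over 3 probe sets. Stx3, a syntaxin, was at -0.44 and at 0.04 with its dim probe sets included, and Rab11a, a recycling GTPase, was at -0.08. Of the 9 bile acid synthesis and conjugation genes, all measured, 1 was above 0.5 and 1 below -0.5. Cyp7a1, the rate-limiting enzyme, had signals of 658 in the oleanolic acid array and 1022 in the control array, a log2 ratio of -0.64. Cyp8b1, which sets the cholic acid share, was at 0.62, Hsd3b7, which acts on the product of Cyp7a1, at 0.47 and the conjugating enzyme Baat at 0.23 with an SD of 0.03 over 2 probe sets.

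**Figure D4:**
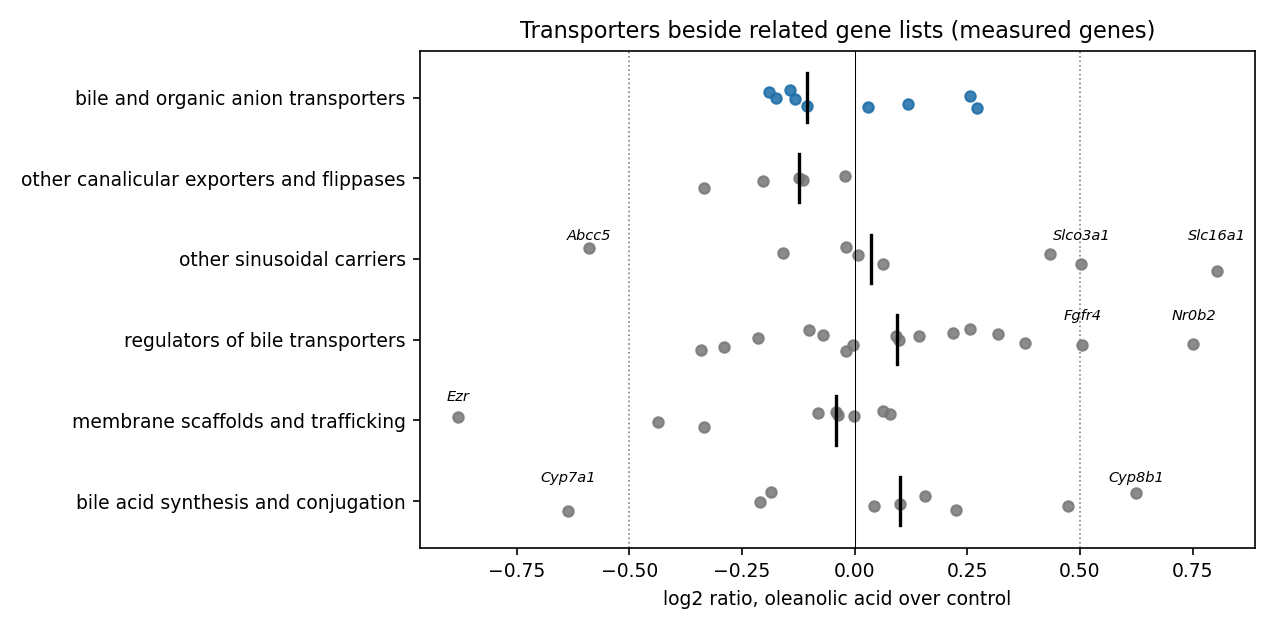
Log2 ratios, oleanolic acid over control, of the transporters (top row) and of the measured genes of 5 related lists, with black bars at each median and names for genes past 0.5 in size (dotted lines). The transporters span -0.19 to 0.27, a narrower range than 4 of the 5 other lists. The lists differ in the number and brightness of their genes, so these ranges are not like for like.

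By symbol, 150 Slc and Slco genes were measured, of which 15 (10.0%) were past 0.5, 7 higher and 8 lower. Of 26 measured Abc genes 2 (7.69%) were past 0.5, both lower. Over all measured genes the share was 5.87%, 2.63% higher and 3.24% lower. Some marker lists differed between the pools beside the transporters. Of 14 measured clock genes, whose levels cycle over the day, 5 had ratios above 0 and 9 below, and 10 were past 0.5. Of the 14, 3 (Arntl, Nr1d1 and Cry1) passed the filter through the oleanolic acid array only. The filter fixed their direction, and all 3 are among the 5 above 0. Arntl and Nr1d1 are also among the 10 past 0.5. Arntl was at 1.87 (0.59 with the floor at the array median) and Per3 at -1.84 (-0.82 with its dim probe sets included). The summed signal of the 14 clock genes was 4351 in the oleanolic acid array and 7105 in the control array. When the tissue was collected was not stated in the sources used here. The 8 exocrine pancreas markers with a probe set had signals of 18.7 to 51.6 in the oleanolic acid array and 66.6 to 156 in the control array. All 8 reached the array median on the control array only, so the filter fixed their direction and none has a value when both signals must reach it. With no filter the list median was -1.77, and with the floor at the array median it was -0.72, on dim signals. All 9 measured macrophage markers were below 0, with a median of -0.13 and a summed signal of 12214 in the oleanolic acid array and 13317 in the control array. Of the 8 hepatocyte markers 7 lay within 0.5 of 0. The exception was Tat, tyrosine aminotransferase, with signals of 2725 in the oleanolic acid array and 4440 in the control array (log2 ratio -0.70, probe set SD 0.13). The summed signal of the 8, most of it from Alb, Ttr, Apoa1, Apob, Fgb and Cps1, was 61504 in the oleanolic acid array and 60998 in the control array. The part of these lists in the transporter ratios was not tested.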

How the data were processed

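Pooled liver RNA of each diet was hybridised to 1 Affymetrix array. The deposited values are linear signal intensities made by the authors with MAS5, per the submitters' processing notes, and no version is given there. Both arrays had a trimmed mean of 300.1 (2% off each end), from the values, and no scaling was added. The table has 22690 probe sets, 64 of them controls. Of the rest, 20380 carried 1 symbol in the platform annotation, 691 several and 1555 none, and 20351 matched a RefSeq gene (GRCm38.p6) by identifier. Detection calls were not used here, so background level is unknown for dim probe sets, and the number of arrays limits precision. Groups came from the titles, since the growth protocol of both samples names oleanolic acid. The number of mice per pool is not given in the sources used here.

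Signals were raised to the 25th percentile of their array (10.1 for oleanolic acid, 10.7 for control) and converted to log2 with Python 3.11.15 and pandas 2.3.3. A gene's log2 ratio averages those of its measured probe sets (11642 in all, 7137 genes), and its signals are geometric means. The functions were tested on simulated data. The members, lists, roles and sizes of 0.5 and 1 were chosen with earlier results of these data known. Genes named are all members and, from the pathway lists, the 4 largest ratios in size of each and 12 further regulators and carriers, as far as measured. Marker lists are given mainly as counts and sums, with single genes as examples. The clock, hepatocyte, cholangiocyte, macrophage, exocrine pancreas, endothelial, stellate, and B and plasma cell lists served as markers. The endothelial and stellate lists had medians of 0.01 (8 measured genes) and 0.07 (6). Of 3 measured B and plasma cell genes 1, Jchain, passed the filter through the control array only, which fixed its direction. That list's median, -1.61 and -1.18 with the higher floor, was the value of Jchain itself, so nothing is read from it. With no filter the median was -0.26. Alternatives covered the floor, the filter, the probe set summary, probe set types and the scaling.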

Additional observations from a re-analysis of the deposited data

How the results depend on the processing

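The ratios were recomputed under 8 alternatives. Members with 1 probe set were above the array median on both arrays. Their values could change only under quantile normalization and intensity-dependent centring, so much of the following count was fixed in advance. Of 71 values of single members, 68 moved by less than the probe set SD. The exceptions were Slc10a1, at -0.03 under both quantile normalization and intensity-dependent centring, and Slco1b2, at -0.43 with no filter on dim probe sets, where 2 dim probe sets enter the mean. The other 8 measured members kept their sign in each alternative that gave a value. The canalicular median stayed between 0.09 and 0.20, the uptake median between -0.17 and -0.10, and their difference between 0.22 and 0.33. No member passed 0.5 under any of the 8. With _x_at and _s_at probe sets left out, Abcc2 has no value. With no filter, the signs of Abcc5 (0.12), Stx3 (0.04) and the markers Clec4g (-0.30) and Pdgfrb (-0.01) turned, while the other list genes recomputed kept their sign in each alternative that gave a value. The median over all genes was -0.08 with no filter and within 0.02 of 0 otherwise. With 1 array per diet no array could be left out. No paired analysis was possible because each diet has 1 array.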
